A study of Homo sapiens with 12 samples.

Results

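The genes described here are 10 subunits of Polycomb repressive complex 2 (PRC2): EZH1, EZH2, SUZ12, EED, RBBP7, MTF2, PHF19, PHF1, JARID2 and AEBP2. They were picked by gene symbol and not by their measured values, although earlier results of these data were known when they were chosen. All 10 were found among the 59251 genes of the count table, and all 10 were among the 13318 genes that passed the expression filter. RNA-Seq was performed on HL-60 cells, a human myeloid leukemia line, in 4 groups of 3 libraries. The cells were left untreated, or received 1 µM all-trans retinoic acid (ATRA), 1 µM palbociclib, or 1 µM of each (combination), and were collected at 48 h. Every library came from this single cell line, which has a defect of the p53 gene. No gene was edited or introduced for these libraries, and the labels call the libraries of a group biological replicates.

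PRC2 places methyl groups on histone H3 at the lysine known as H3K27, a mark of silenced genes that keeps developmental programs switched off. EZH2 and its paralog EZH1 are alternative catalytic subunits, of which EZH2 is the one typical of dividing cells and EZH1 the one typical of resting cells. SUZ12 and EED are obligate partners of either enzyme, and RBBP7 is a histone-binding subunit that is shared with other chromatin complexes. Accessory subunits define 2 forms of the complex. MTF2, PHF19 and PHF1, the Polycomb-like proteins, mark PRC2.1, and JARID2 and AEBP2 mark PRC2.2. ATRA drives maturation of myeloid cells, and palbociclib inhibits CDK4 and CDK6, kinases that start the cell cycle by phosphorylating the RB protein and so releasing E2F transcription factors.

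Total counts ranged from 15238994 to 18679544 in untreated, ATRA and palbociclib libraries and from 12230923 to 14415276 in the combination libraries, which were the smallest. Counts are given as CPM (counts scaled to a common library total by TMM), and 3 counts, taken as the floor, correspond to 0.156 to 0.275 CPM on this scale. The reads carried no molecular identifiers, and this floor covers counting error only. Calls rest on the quasi-likelihood test of edgeR, at a threshold of 0.05 on p-values adjusted over all 13318 genes by the Benjamini-Hochberg method. Untreated cells expressed MPO, the granule peroxidase of promyelocytes, at 6517 ± 167.5 CPM (SD, n = 3), and the summed level of 10 markers of other cell types stayed at or below 3.42 CPM in every library. MPO fell in every treated group, to 292.8 ± 27.4 CPM with ATRA, 3469 ± 66.4 with palbociclib and 28.0 ± 5.15 with the combination, while CSF3R, the G-CSF receptor, rose from 38.8 to 116.2 CPM with the combination. Of the 7 tested myeloid markers, 2 rose and 5 fell with ATRA, 4 rose and 3 fell with palbociclib, and 3 rose and 3 fell with the combination. Over all tested genes 32.1% were higher and 35.5% lower with ATRA, 28.3% and 27.9% with palbociclib, and 41% and 40.7% with the combination. The summed level of the myeloid list was 7178 to 7527 CPM in untreated libraries, 1061 to 1114 with ATRA, 4242 to 4374 with palbociclib and 1180 to 1252 with the combination. MPO alone held most of this sum in untreated and palbociclib libraries and a smaller part of it in ATRA and combination libraries. The lower sums therefore mainly reflect MPO and not the list as a whole. Of the 10 myeloid markers, 3 (ELANE, PRTN3 and AZU1) were listed at 0 in every library. These 3 genes are also listed on alternate contigs of the genome, as PHF1 is. Of the 1586 protein-coding genes so listed, 42.6% had no count in any library, against 23.1% of the 17988 others.

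EZH2 fell with palbociclib and fell further with the combination, while EZH1 rose in both. SUZ12, RBBP7 and PHF19 fell with palbociclib and again when ATRA was added to it. JARID2 rose with ATRA and rose most steeply with the combination. AEBP2 rose with ATRA and with the combination, and MTF2 stayed within a narrow range of levels. The comparisons with untreated cells share the same 3 untreated libraries, and those of the combination share its 3 libraries, so they are not independent of each other.

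**Figure D1:**
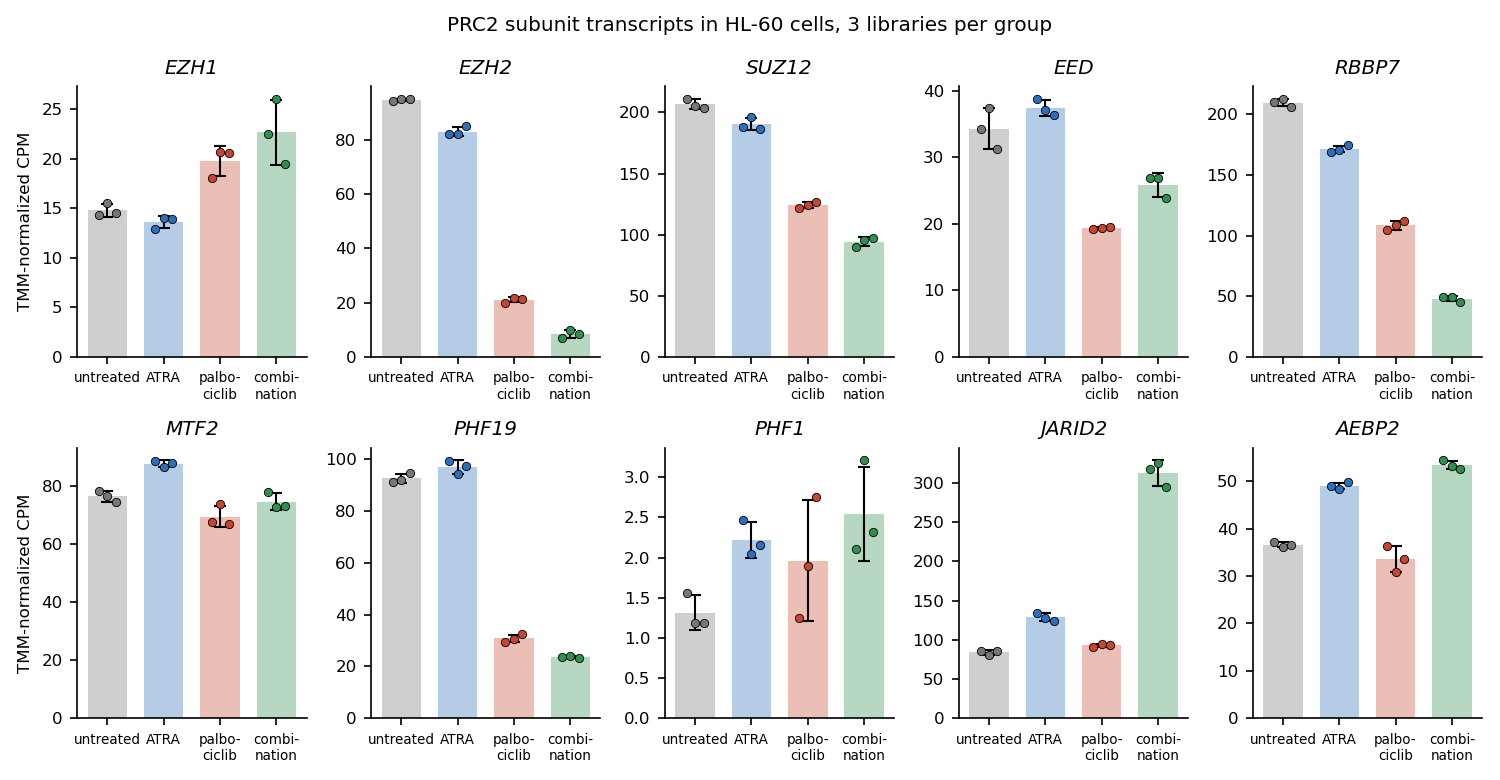
TMM-normalized CPM of the 10 PRC2 subunits on linear axes that start at 0. Bars are group means of 3 libraries, whiskers are SD and points are single libraries. EZH2 drops from 94.7 CPM in untreated cells to 8.46 CPM in the combination, whereas JARID2 climbs from 84.1 to 312.6 CPM.

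The promoters of 4 subunits are shown because EZH2, SUZ12 and PHF19 fell together while EZH1 rose, and all 4 windows hold a letter match to an E2F word. Each window holds 250 bases before and 50 bases after a RefSeq transcription start on GRCh38.p14, read 5′ to 3′ on the strand of the gene. Capitals mark a match to TTTCCCGC, TTTCGCGC, TTTGCCGC or TTTGGCGC on either strand. A match on the opposite strand appears as its reverse complement. The windows lie at chr7:148884242-148884541 (EZH2, minus strand), chr17:42744991-42745290 (EZH1, minus strand), chr17:31936757-31937056 (SUZ12, plus strand) and chr9:120877139-120877438 (PHF19, minus strand).
EZH2: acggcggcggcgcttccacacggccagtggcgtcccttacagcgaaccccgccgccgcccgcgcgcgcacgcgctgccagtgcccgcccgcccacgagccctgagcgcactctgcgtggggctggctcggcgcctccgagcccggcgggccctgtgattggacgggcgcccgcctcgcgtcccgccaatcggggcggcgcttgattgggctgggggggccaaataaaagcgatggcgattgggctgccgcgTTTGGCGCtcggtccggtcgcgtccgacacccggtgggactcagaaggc
EZH1: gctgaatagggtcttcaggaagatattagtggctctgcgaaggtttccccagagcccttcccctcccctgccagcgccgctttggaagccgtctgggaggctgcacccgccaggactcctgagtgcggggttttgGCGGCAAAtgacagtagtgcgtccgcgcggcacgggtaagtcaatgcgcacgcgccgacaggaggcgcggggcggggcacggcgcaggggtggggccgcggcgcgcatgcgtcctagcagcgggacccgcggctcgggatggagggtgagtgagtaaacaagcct
SUZ12: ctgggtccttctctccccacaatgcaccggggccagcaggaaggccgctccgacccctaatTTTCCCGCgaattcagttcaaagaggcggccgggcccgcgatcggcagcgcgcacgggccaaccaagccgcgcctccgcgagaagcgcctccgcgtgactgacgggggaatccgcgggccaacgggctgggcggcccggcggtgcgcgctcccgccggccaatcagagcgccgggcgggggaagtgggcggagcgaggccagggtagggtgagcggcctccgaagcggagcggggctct
PHF19: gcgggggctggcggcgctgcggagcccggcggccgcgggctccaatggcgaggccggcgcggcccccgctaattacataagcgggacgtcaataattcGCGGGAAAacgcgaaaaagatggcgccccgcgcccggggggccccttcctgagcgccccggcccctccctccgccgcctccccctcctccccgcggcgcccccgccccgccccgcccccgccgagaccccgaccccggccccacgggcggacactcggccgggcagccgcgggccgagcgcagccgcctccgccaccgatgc

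The word in the EZH2 window began 2 bases after the start site, and that in the SUZ12 window 189 bases before it, both on the strand of the gene. In the EZH1 and PHF19 windows the words lay on the opposite strand, 115 and 152 bases before the start. A word was also present in a window of MTF2 and in a window of AEBP2. In all, 6 of the 14 windows of the 10 subunits held a word, against 3.31% of 35116 windows of the same length across the genome. The CHR word TTTGAA, searched on both strands, was present in 1 of the 14 windows, that of SUZ12, against 15.2% of all windows. These are matches of letters in fixed windows and were not tested for binding. Words occurred in windows of subunits that fell and in windows of EZH1 and AEBP2, which rose. None occurred in the windows of RBBP7 and EED, which fell with palbociclib and the combination, in those of JARID2 and PHF1, or in the other windows of EZH2 and PHF19.

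EZH2 (hg38 chr7:148807383-148884291, minus strand) is the catalytic subunit of PRC2 in dividing cells. It stood at 94.3, 95 and 94.9 CPM in untreated cells and at 82.1, 82.1 and 85.0 CPM with ATRA. With palbociclib it stood at 20.0, 21.7 and 21.4 CPM, and with the combination at 6.97, 9.89 and 8.51 CPM, from 76 to 111 counts per library. No library of any group overlapped another group, and the order was untreated, ATRA, palbociclib, combination. The log2 fold change against untreated cells was -0.19 ± 0.0495 (SE) with ATRA (adjusted p = 0.000767), -2.17 ± 0.0590 with palbociclib (adjusted p = 3.7e-34) and -3.48 ± 0.0766 with the combination (adjusted p = 5.1e-39). EZH2 thus kept 22.2% of its untreated level under palbociclib and 8.93% under the combination. Only 1.58% of the tested genes had a palbociclib log2 fold change as low as that of EZH2, and 3.86% had one as low with the combination. Against palbociclib alone, the combination gave a log2 difference of -1.31 ± 0.0947 (adjusted p = 1.5e-17), and against ATRA alone one of -3.29 ± 0.0777 (adjusted p = 3.2e-37).

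EZH1 (hg38 chr17:42700275-42745040, minus strand), the paralog typical of resting cells, moved the other way. Its level was 14.3, 15.6 and 14.5 CPM in untreated cells and 12.9, 14.0 and 13.9 CPM with ATRA. The palbociclib libraries held 18.0, 20.7 and 20.6 CPM and the combination libraries 22.5, 26.0 and 19.5 CPM. All 6 libraries with palbociclib lay above all 6 without it, while the palbociclib and combination libraries overlapped. EZH1 rose by 0.42 ± 0.0931 (SE, log2) with palbociclib (adjusted p = 0.000147) and by 0.61 ± 0.0972 with the combination (adjusted p = 1.7e-07), and the combination exceeded ATRA alone by 0.73 ± 0.0980 (adjusted p = 5.0e-09). With ATRA the log2 fold change was -0.12 ± 0.0986, which was not called (adjusted p = 0.288) although the libraries of the 2 groups did not overlap. The step from palbociclib to the combination, 0.20 ± 0.0928, passed narrowly (adjusted p = 0.0493). That call was lost when any of 11 of the 12 libraries was left out (0.079 with adjusted p = 0.490 without combination 2, 0.138 with adjusted p = 0.211 without palbociclib 1, and adjusted p from 0.0520 to 0.0754 for the other 9). Only without combination 3 was it kept (0.30, adjusted p = 0.00655). It was also lost with the DESeq2 test (0.21, adjusted p = 0.0694), in a fit of only these 2 groups (0.20, adjusted p = 0.0578) and with no filter (0.096, adjusted p = 0.475), and by library size alone the value was -0.081 (adjusted p = 0.453).

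SUZ12 (hg38 chr17:31937007-32001038, plus strand), the scaffold of the complex, had the same order of groups as EZH2 over a smaller range. Untreated cells held 211.1, 205.5 and 203.2 CPM and ATRA-treated cells 188.1, 196.2 and 186.8 CPM. Palbociclib-treated cells held 121.6, 124.2 and 126.5 CPM and combination-treated cells 89.9, 95.5 and 96.8 CPM. No groups overlapped. SUZ12 fell by 0.74 on the log2 scale with palbociclib (SE 0.0385, adjusted p = 2.8e-22) and by 1.13 with the combination (SE 0.0416, adjusted p = 1.8e-29). The log2 difference between the combination and palbociclib alone was -0.40 (SE 0.0430, adjusted p = 1.0e-11). The ATRA effect was small (-0.12, adjusted p = 0.00471), and it was not called by DESeq2 (adjusted p = 0.0521), by library size alone (adjusted p = 0.0547) or in a fit of those 2 groups only (adjusted p = 0.0854). Some SUZ12 reads could belong to the copy SUZ12P1, which held 60 to 403 counts per library against 981 to 3609 for SUZ12.

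RBBP7 (hg38 chrX:16844341-16870362, minus strand), the histone-binding subunit, fell in every treated group. Its untreated libraries held 210.6, 212.3 and 206.5 CPM and its ATRA libraries 169.2, 170.9 and 174.4 CPM. The values were 104.5, 108.6 and 112.4 CPM with palbociclib and 49.0, 49.5 and 45.6 CPM with the combination, with no overlap between any groups. The log2 fold changes against untreated cells were -0.29 ± 0.0377 (SE) with ATRA (adjusted p = 2.5e-09), -0.95 ± 0.0392 with palbociclib (adjusted p = 1.7e-26) and -2.13 ± 0.0462 with the combination (adjusted p = 3.0e-39). The step from palbociclib to the combination was -1.18 ± 0.0485 (adjusted p = 3.7e-27). Its exons share 179 bases with TXLNG on the opposite strand, and whether reads were counted by strand is not stated. TXLNG had 8586 counts over the 12 libraries and RBBP7 26745.

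EED (hg38 chr11:86244753-86287615, plus strand) reads the H3K27 mark and stimulates the enzyme. Its levels were 34.3, 37.4 and 31.3 CPM in untreated cells and 38.8, 37.0 and 36.4 CPM with ATRA. They were 19.2, 19.4 and 19.5 CPM with palbociclib and 26.9, 26.9 and 23.8 CPM with the combination. EED was the core subunit whose lowest group was palbociclib alone. The palbociclib and combination libraries overlapped neither each other nor the untreated libraries, whereas untreated and ATRA libraries overlapped. EED fell by 0.82 on the log2 scale with palbociclib (SE 0.0738, adjusted p = 9.9e-14) and by 0.41 with the combination (SE 0.0760, adjusted p = 4.2e-06). The combination was thus higher than palbociclib alone, by 0.41 (SE 0.0816, adjusted p = 1.2e-05), although by library size alone this was 0.14 and not called (adjusted p = 0.134). The ATRA value of 0.13 was not called (adjusted p = 0.0971), but it was without untreated 2 (0.19, adjusted p = 0.0273), with DESeq2's size factors (adjusted p = 0.0378), by library size alone (adjusted p = 0.0364), with at least 10 counts in every library (adjusted p = 0.0413) and in a fit of the 2 groups (adjusted p = 0.0162).

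Among the PRC2.1 subunits, PHF19 (hg38 chr9:120855651-120904128, minus strand) fell with palbociclib and with the combination. PHF19 stood at 91.2, 91.8 and 94.4 CPM in untreated cells and at 99.2, 94.2 and 97.3 CPM with ATRA, and these groups overlapped. It stood at 29.6, 30.6 and 32.4 CPM with palbociclib and at 23.8, 24.1 and 23.3 CPM with the combination, below both other groups and apart from each other. The log2 fold change was -1.59 ± 0.0521 (SE) with palbociclib (adjusted p = 1.3e-30) and -1.96 ± 0.0590 with the combination (adjusted p = 3.5e-33), and the combination lay below palbociclib by -0.38 ± 0.0673 (adjusted p = 2.1e-06). With ATRA it was 0.07 ± 0.0455 and not called (adjusted p = 0.191), but it was by library size alone (adjusted p = 0.0433) and in a fit of those 2 groups (adjusted p = 0.0134). PHF19 shares 1736 exonic bases with TRAF1 on the same strand, and TRAF1 had 950 counts in all against 12083 for PHF19.

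MTF2 (hg38 chr1:93079283-93139076, plus strand) stood at 78.1, 76.4 and 74.6 CPM in untreated cells and at 88.7, 86.3 and 87.7 CPM with ATRA. Its palbociclib libraries held 67.6, 73.6 and 66.9 CPM and its combination libraries 78.0, 72.6 and 73.1 CPM. The ATRA libraries lay above all others, and the combination libraries overlapped the untreated and the palbociclib libraries. MTF2 rose by 0.20 ± 0.0468 (SE, log2) with ATRA (adjusted p = 0.000229) and was lower with the combination than with ATRA, by -0.23 ± 0.0493 (adjusted p = 4.5e-05). The palbociclib effect of -0.14 ± 0.0478 was called (adjusted p = 0.0112) but not without untreated 1 (-0.12, adjusted p = 0.0542) or palbociclib 3 (-0.11, adjusted p = 0.0760). Between the combination and untreated cells the log2 difference was -0.04, with a 95% interval of -0.14 to 0.07 (adjusted p = 0.513). By library size alone it was -0.30 (adjusted p = 3.4e-06), and with no expression filter -0.14 (adjusted p = 0.0278). Between the combination and palbociclib it was 0.10 ± 0.0503 and not called (adjusted p = 0.0564). That difference was called with DESeq2's size factors (0.11, adjusted p = 0.0369), with at least 10 counts in every library (0.13, adjusted p = 0.0120) and without palbociclib 2 (0.14, adjusted p = 0.0229), and by library size alone it was -0.17 (adjusted p = 0.00346).

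PHF1 (hg38 chr6:33410412-33416439, plus strand) was the faintest subunit, with 19 to 47 counts per library, and the table lists 17 of its exon blocks on chromosome 6 and 15 on an alternate contig, so its level may be understated. Its values were 1.56, 1.19 and 1.18 CPM in untreated cells and 2.47, 2.04 and 2.15 CPM with ATRA. They were 1.24, 1.89 and 2.75 CPM with palbociclib and 2.11, 3.21 and 2.31 CPM with the combination. The palbociclib libraries overlapped those of every other group, while the ATRA and combination libraries lay above the untreated ones. PHF1 rose with the combination, by 0.95 ± 0.301 (SE, log2, adjusted p = 0.00382). The ATRA effect of 0.75 ± 0.289 was called (adjusted p = 0.0192), but not without ATRA 1 (0.68, adjusted p = 0.0688), untreated 2 (0.69, adjusted p = 0.0635) or untreated 3 (0.68, adjusted p = 0.0675). The palbociclib value was 0.57 ± 0.294 (adjusted p = 0.0979), and without palbociclib 1 it was 0.82 and called (adjusted p = 0.0226). The combination differed from palbociclib by 0.39 (adjusted p = 0.207) and from ATRA by 0.20 (adjusted p = 0.536), with 95% intervals of -0.18 to 0.95 and -0.36 to 0.75. Without palbociclib 3 the first of these was 0.70 and called (adjusted p = 0.0429), and without combination 2 the other was -0.0065 (adjusted p = 0.988).

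JARID2 (hg38 chr6:15246069-15522042, plus strand), which binds nucleosomes and helps recruit PRC2.2 to chromatin, was the subunit with the steepest rise. It stood at 85.3, 80.6 and 86.4 CPM in untreated cells and at 134.0, 128.2 and 124.0 CPM with ATRA. With palbociclib it stood at 91.0, 94.1 and 93.9 CPM, and with the combination at 317.7, 325.5 and 294.5 CPM. No groups overlapped, and every combination library exceeded every other library. JARID2 rose by 0.61 ± 0.0440 (SE, log2) with ATRA (adjusted p = 2.1e-17) and by 1.89 ± 0.0427 with the combination (adjusted p = 1.6e-38), which is 3.71-fold. The combination exceeded palbociclib alone by 1.75 ± 0.0421 (adjusted p = 4.3e-37) and ATRA alone by 1.28 ± 0.0408 (adjusted p = 1.3e-31). The palbociclib effect of 0.14 ± 0.0453 was called (adjusted p = 0.00588) but not without untreated 2 (0.11, adjusted p = 0.0574). With the combination against untreated cells, 11.8% of the tested genes had a higher log2 fold change than JARID2.

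AEBP2 (hg38 chr12:19404072-19522227, plus strand), a zinc finger subunit that stabilizes the complex, rose in the groups with ATRA. Its levels were 37.1, 36.1 and 36.6 CPM in untreated cells and 48.9, 48.4 and 49.7 CPM with ATRA. They were 36.2, 30.9 and 33.5 CPM with palbociclib and 54.4, 53.1 and 52.6 CPM with the combination. All 6 libraries with ATRA lay above all 6 without it, and the palbociclib libraries overlapped the untreated ones. AEBP2 rose by 0.42 ± 0.0592 (SE, log2) with ATRA (adjusted p = 1.8e-08), by 0.54 ± 0.0617 with the combination (adjusted p = 3.7e-11) and by 0.67 ± 0.0620 from palbociclib to the combination (adjusted p = 1.0e-13). The palbociclib value of -0.12 was not called (adjusted p = 0.0907), but it was without palbociclib 1 (-0.19, adjusted p = 0.0172). The combination and ATRA differed by 0.12 (95% interval 0.0034 to 0.24, adjusted p = 0.0622), and by library size alone by -0.18 (adjusted p = 0.00739). With at least 10 counts in every library that difference was 0.13 and called (adjusted p = 0.0430).

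Counted over the 10 subunits, 7 were called with ATRA, 4 higher and 3 lower, beside 67.6% of all tested genes called, 32.1% higher and 35.5% lower. The libraries of the groups did not overlap for 8 subunits, beside 70.3% of all tested genes. With palbociclib 8 were called, 2 higher and 6 lower, where 56.2% of all genes were called, 28.3% higher and 27.9% lower. Here too 8 subunits had groups that did not overlap, beside 60.7% of all genes. With the combination against untreated cells 9 were called, 4 higher and 5 lower, where 81.7% of all genes were called, 41% higher and 40.7% lower, and 9 had groups that did not overlap, beside 81.8%. The share of subunits called was close to the background share in ATRA and in the combination. In the palbociclib comparison 6 of 10 were lower where 27.9% of all genes were, and the median log2 fold change of the subunits was -0.44 against 0.02 over all tested genes. The medians of the subunits were 0.10 with ATRA (-0.03 over all genes) and -0.22 with the combination (0.02 over all genes), with called subunits on both sides of 0.

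Set directly against palbociclib, the combination called 8 subunits, 4 higher and 4 lower, with 7 that did not overlap. Over all genes 78.6% were called, 39.1% higher and 39.5% lower, and 78.9% did not overlap. By library size alone, which moves the median of all genes by -0.28 in this comparison, the subunits split into 2 higher and 5 lower, where 3805 of all 13318 genes were higher and 6554 lower. Set against ATRA, the combination called 8 subunits, 2 higher and 6 lower, with 9 that did not overlap, beside 69.8% called over all genes, 36.9% higher, 32.8% lower and 71.9% without overlap. The median log2 difference of the subunits was 0.15 against palbociclib and -0.38 against ATRA, where the medians over all genes were 0.00 and 0.04.

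**Figure D2:**
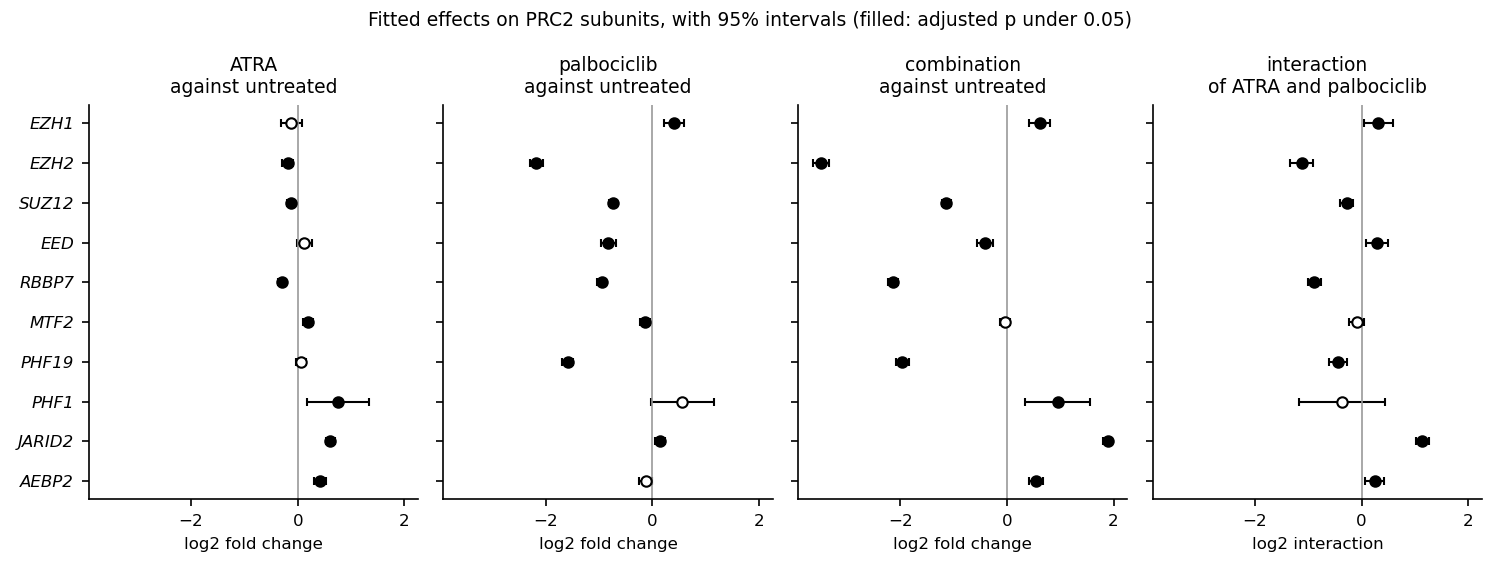
Fitted log2 fold changes of each subunit against untreated cells for ATRA, palbociclib and the combination, and the interaction of the drugs on the same log2 axis. Points are edgeR estimates from 12 libraries, bars are 95% intervals and filled points have an adjusted p under 0.05. EZH2, RBBP7, PHF19 and SUZ12 lie left of 0 in both panels with palbociclib, and JARID2 lies at 1.89 for the combination.

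The interaction asks whether both drugs together moved a gene by more or less than the sum of the single log2 effects. It was called for 8 of the 10 subunits, 4 above and 4 below the sum, beside 51.4% of all tested genes called, 24.5% above and 27% below. JARID2 had the highest interaction, 1.14 ± 0.0609 (SE, log2, adjusted p = 1.5e-21), and 5.86% of tested genes lay above it. EZH2 had the lowest, -1.12 ± 0.108 (adjusted p = 1.4e-12), followed by RBBP7 at -0.89 ± 0.0619 (adjusted p = 2.7e-17). PHF19 (-0.44, adjusted p = 7.6e-06) and SUZ12 (-0.28, adjusted p = 4.2e-05) were also below the sum. These 5 calls held under every alternative that was run.

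The other called interactions were those of EZH1 (0.32, adjusted p = 0.0464), EED (0.29, adjusted p = 0.0196) and AEBP2 (0.24, adjusted p = 0.0147), and each of them was lost without some libraries. EZH1 lost its call without any of 9 libraries (0.20 with adjusted p = 0.251 without combination 2, and adjusted p from 0.0554 to 0.128 without combination 1, palbociclib 1 or any untreated or ATRA library), with DESeq2 (adjusted p = 0.107), with DESeq2's size factors in edgeR (adjusted p = 0.0641) and with no filter (adjusted p = 0.277). EED lost it without untreated 2 (0.22, adjusted p = 0.0976), combination 1 (0.26, adjusted p = 0.0522) or combination 2 (0.25, adjusted p = 0.0654), with DESeq2 (0.27, adjusted p = 0.0583) and with no filter (0.20, adjusted p = 0.229). AEBP2 lost it without palbociclib 2 (0.18, adjusted p = 0.0836) and with no filter (0.16, adjusted p = 0.289). By library size alone the values were -0.0020 for EZH1, -0.029 for EED and -0.073 for AEBP2, none of them called, and the subunits split into 1 above and 5 below the sum. Over all 13318 genes 1375 were then called above and 6061 below. MTF2 and PHF1 were not called (-0.09, adjusted p = 0.265, and -0.37, adjusted p = 0.474), except that MTF2 was by library size alone (-0.41, adjusted p = 7.9e-06).

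The balance of the catalytic subunits was followed as the log2 ratio of EZH1 to EZH2 per gene length within each library, in which library scaling cancels. With the gene lengths of the deposited table, the ratio was -1.15, -1.04 and -1.14 in untreated cells and -1.10, -0.98 and -1.05 with ATRA. It was 1.42, 1.5 and 1.51 with palbociclib and 3.26, 2.96 and 2.76 with the combination. The palbociclib and combination libraries lay apart from all others, and the ATRA and untreated libraries overlapped. The ratio was 6.01-fold higher with palbociclib than in untreated cells (2.59 on the log2 scale) and 17.2-fold higher with the combination (4.11). The combination exceeded palbociclib 2.87-fold and ATRA 16.4-fold. In a two-sided exact permutation test each of these 4 differences reached p = 0.1, the lowest value that 3 against 3 libraries can give (0.111 after Benjamini-Hochberg adjustment over the 10 ratio comparisons). ATRA differed from untreated cells by 0.068 (exact permutation p = 0.3). Over the 4 groups the exact permutation p was 0.000195, and the same after adjustment over the 2 ratios.

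**Figure D3:**
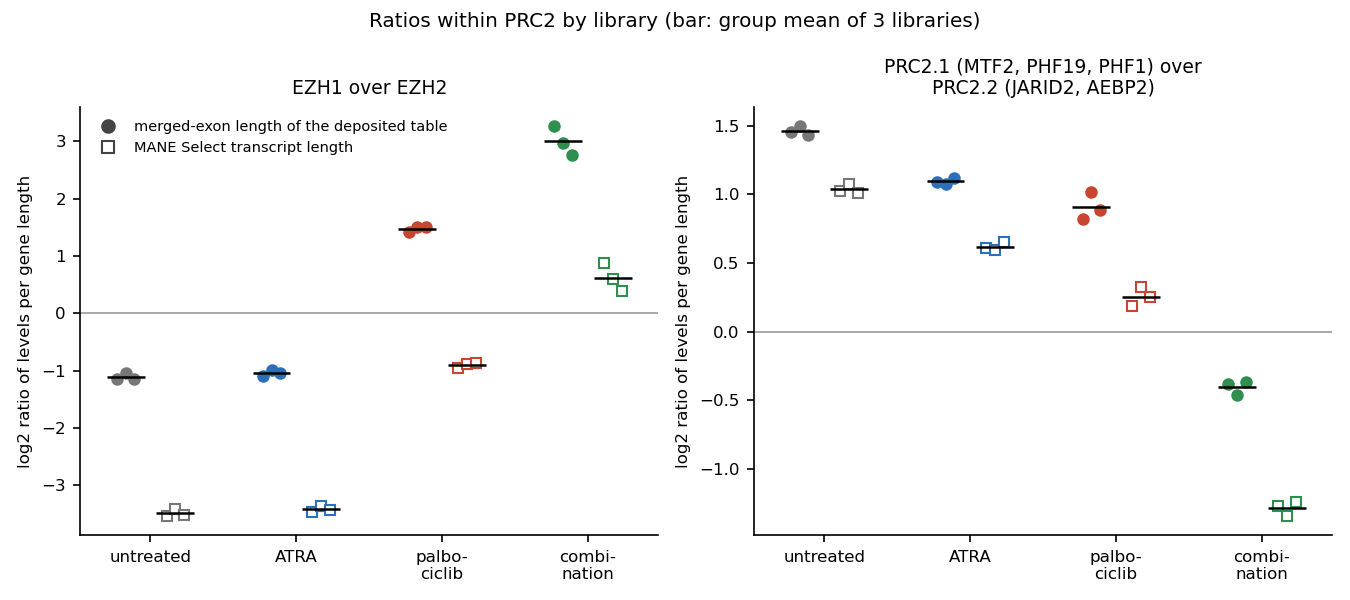
Log2 ratio of EZH1 to EZH2 (left) and of PRC2.1 to PRC2.2 accessory subunits (right) in each library, per gene length. Circles use the merged-exon length of the deposited table, squares use the length of the MANE Select transcript, bars are group means of 3 libraries and the line at 0 marks equal levels. The palbociclib libraries of the left panel lie above 0 with the first length and below 0 with the other, while the steps between groups of that panel are the same.

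Which of the paralogs was the more abundant depended on the length used. The table gives EZH2 13744 bases of merged exons, of which a single block at chr7:148850454-148860329 holds 9876 bases (71.9%), whereas its MANE Select transcript has 2654 bases. EZH1 has 4633 bases by either measure. With the table's lengths EZH2 was 2.16-fold above EZH1 in untreated cells, and EZH1 was 2.78-fold above EZH2 with palbociclib and 7.98-fold above it with the combination. With the MANE Select lengths EZH2 was 11.2-fold above EZH1 in untreated cells and still 1.86-fold above it with palbociclib, and EZH1 was 1.54-fold above EZH2 with the combination. All 3 combination libraries had more EZH1 than EZH2 by either length. The share of EZH2 in the raw counts of both genes, with no length correction, was 86.5% ± 0.489 (SD, n = 3) in untreated cells, 85.9% ± 0.469 with ATRA, 51.6% ± 0.868 with palbociclib and 27.2% ± 3.37 with the combination.

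The accessory subunits were compared in the same way, as the summed level of MTF2, PHF19 and PHF1 over that of JARID2 and AEBP2, per gene length. The log2 ratio of PRC2.1 to PRC2.2 was 1.45, 1.49 and 1.43 in untreated cells and 1.09, 1.08 and 1.11 with ATRA. It was 0.82, 1.02 and 0.89 with palbociclib and -0.38, -0.47 and -0.37 with the combination. No groups overlapped. The combination libraries had more summed PRC2.2 than PRC2.1 accessory transcript, with the table's lengths (1.32-fold) and with MANE Select lengths (2.43-fold). The mean log2 ratio of the other groups was above 0 with both lengths, but with no division by length that of palbociclib was -0.31. The ratio differed from untreated cells by -0.36 with ATRA, -0.55 with palbociclib and -1.86 with the combination, and the combination differed from palbociclib by -1.31 and from ATRA by -1.5. Each difference again reached p = 0.1 in the two-sided exact permutation test (0.111 after adjustment). Over the 4 groups the exact permutation p was 6.5e-05, the smallest that 4 groups of 3 can give.

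The sums behind this ratio, in RPKM (CPM per kilobase of gene length), moved in different groups. With the table's lengths the PRC2.1 sum was 31.1 ± 0.280 (SD, n = 3) in untreated cells, 34.7 ± 0.662 with ATRA, 21.5 ± 0.901 with palbociclib and 21.9 ± 0.674 with the combination. The PRC2.2 sum was 11.3 ± 0.264, 16.2 ± 0.284, 11.4 ± 0.322 and 29.0 ± 1.14 RPKM in the same order. The PRC2.1 sum was thus lower in both groups with palbociclib, and the PRC2.2 sum was higher in both groups with ATRA. The members of a sum did not move alike. Between untreated and combination cells PHF19 went from 12.1 to 3.11 RPKM, MTF2 from 18.7 to 18.3 and PHF1 from 0.271 to 0.526. Over the same groups JARID2 went from 5.54 to 20.6 RPKM and AEBP2 from 5.79 to 8.44. The sum of the core subunits EZH1, EZH2, SUZ12, EED and RBBP7 was 134.6 ± 2.12 RPKM in untreated cells, 116.8 ± 1.17 with ATRA, 74.1 ± 2.29 with palbociclib and 46.8 ± 1.62 with the combination. Most of it came from SUZ12 and from RBBP7, which other complexes share (43.5 and 75.3 RPKM in untreated cells). EZH2 and EZH1 gave 6.89 and 3.19 RPKM there.

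Ordered by RPKM with the table's lengths, RBBP7 was the highest of the 10 subunits in untreated (75.3), ATRA (61.6) and palbociclib (38.9) cells, followed by SUZ12 (43.5, 40.0 and 26.1) and MTF2 (18.7, 21.5 and 17). In the combination the top 4 were JARID2 (20.6 ± 1.06, SD, n = 3), SUZ12 (19.8 ± 0.772), MTF2 (18.3 ± 0.739) and RBBP7 (17.2 ± 0.758), and the first and second of them differed by less than the SD of JARID2. JARID2 had been the eighth of 10 in untreated cells, at 5.54 RPKM, where EED (5.70), AEBP2 (5.79) and JARID2 lay within the SD of EED (0.508). EZH2 moved from the fifth place in untreated cells (6.89) to the ninth in the combination (0.615 ± 0.107), within its SD of PHF1 (0.526 ± 0.121), which was the lowest in every group. With MANE Select lengths JARID2 was also the highest in the combination, at 52.1 RPKM against 21.1 for RBBP7, and EZH2 was the third in untreated cells at 35.7 RPKM.

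EZH2, SUZ12, PHF19 and RBBP7 followed each other closely across the 12 libraries, as a description of libraries that share 4 treatments. Pearson's r of log2 CPM with EZH2 was 0.997 for SUZ12, 0.978 for PHF19, 0.972 for RBBP7 and 0.713 for EED. With EZH1 it was -0.909, and JARID2 and AEBP2 had an r of 0.840 with each other. Among 8228 genes with a mean of at least 10 CPM, the 5 genes most like EZH2 were ORC1, RBL1, NSD2, H2AZ1 and CBX1 (r from 0.998 to 0.999). ORC1 is the largest subunit of the origin recognition complex that licenses DNA replication, and its mean fell from 91.9 to 6.35 CPM between untreated and combination cells. The 5 genes most like EZH1 were MCM3AP, MAN2A2, SLC39A13, CYTH3 and LAMTOR5, with a lower r of 0.943 to 0.969.

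Genes of the cell cycle moved in the same groups as EZH2. All 42 tested genes of an S phase list fell with palbociclib and with the combination, with a median log2 fold change of -2.60 and -4.80, where 27.9% and 40.7% of all tested genes were lower. Their summed level ranged over 6047 to 6402 CPM in untreated libraries, 4906 to 5113 with ATRA, 1418 to 1456 with palbociclib and 414.0 to 426.3 with the combination. In the same comparisons 52 and 51 of 52 tested G2/M genes fell (medians -2.61 and -4.85), and the exception with the combination was LBR, which codes for a nuclear envelope receptor (0.90 ± 0.0399, SE). The summed G2/M level was 9721 to 9882 CPM, 12692 to 12984 CPM, 2822 to 2908 CPM and 2049 to 2071 CPM in untreated, ATRA, palbociclib and combination libraries. With ATRA 30 of the 42 S phase genes fell and 4 rose (median -0.34), while 34 of the 52 G2/M genes rose and 5 fell (median 0.30). In that comparison 32.1% of all tested genes were higher and 35.5% lower. The S phase extremes with the combination were RPA2, a single-strand DNA binding protein (-0.79), and EXO1, a DNA repair exonuclease (-7.87, 1 to 5 counts per combination library). The G2/M gene with the lowest value was CDCA3 (-7.56, 0 to 4 counts). The genes at 0 in every library were UBR7 of the S phase list, which is also on an alternate contig, and PIMREG and GAS2L3 of the G2/M list. The part of the cell cycle genes in the fall of EZH2, SUZ12, RBBP7 and PHF19 was not tested. In bulk RNA, fewer cells of a type and less RNA per cell cannot be told apart.

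Of 5 other proteins that join PRC2, 3 passed the expression filter. RBBP4, the close paralog of RBBP7, fell with ATRA (-0.29 ± 0.0367, SE, log2), palbociclib (-0.58 ± 0.0371) and the combination (-1.11 ± 0.0396), from 330.5 ± 13.7 CPM (SD, n = 3) in untreated cells to 152.9 ± 2.93 CPM. LCOR, whose locus encodes a PRC2.1 partner, rose with ATRA (0.64) and the combination (0.79) and fell with palbociclib (-0.36), at 78.1, 121.5, 60.9 and 135.3 CPM in untreated, ATRA, palbociclib and combination cells. LCORL fell with palbociclib (-0.66) and the combination (-0.30). EPOP and EZHIP were listed at 0 in every library, and EPOP is also on an alternate contig. Of these 3 tested partners, 1 rose and 1 fell with ATRA, 3 fell with palbociclib, and 1 rose and 2 fell with the combination, where 67.6%, 56.2% and 81.7% of all tested genes were called.

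Both demethylases that remove the H3K27 mark rose with the combination, where 41% of all tested genes were higher. Both rose with ATRA and 1 with palbociclib, beside 32.1% and 28.3% of all tested genes. KDM6B stood at 25.5 ± 1.73 CPM (SD, n = 3) in untreated cells, 64.5 ± 2.08 with ATRA, 56.9 ± 3.69 with palbociclib and 165.5 ± 5.81 with the combination, a log2 fold change of 2.7 ± 0.0559 (SE, adjusted p = 3.9e-40). It rose with each single drug too (1.34 with ATRA and 1.16 with palbociclib). KDM6A stood at 24.4 ± 0.746, 40.6 ± 1.35, 23.9 ± 1.81 and 53.4 ± 3.89 CPM in the same order. It rose with ATRA (0.74) and the combination (1.13, adjusted p = 2.5e-20), and its palbociclib value was -0.03 (adjusted p = 0.743). In the combination, the transcripts of EZH2 and of the demethylases thus lay on opposite sides of their untreated levels.

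**Figure D4:**
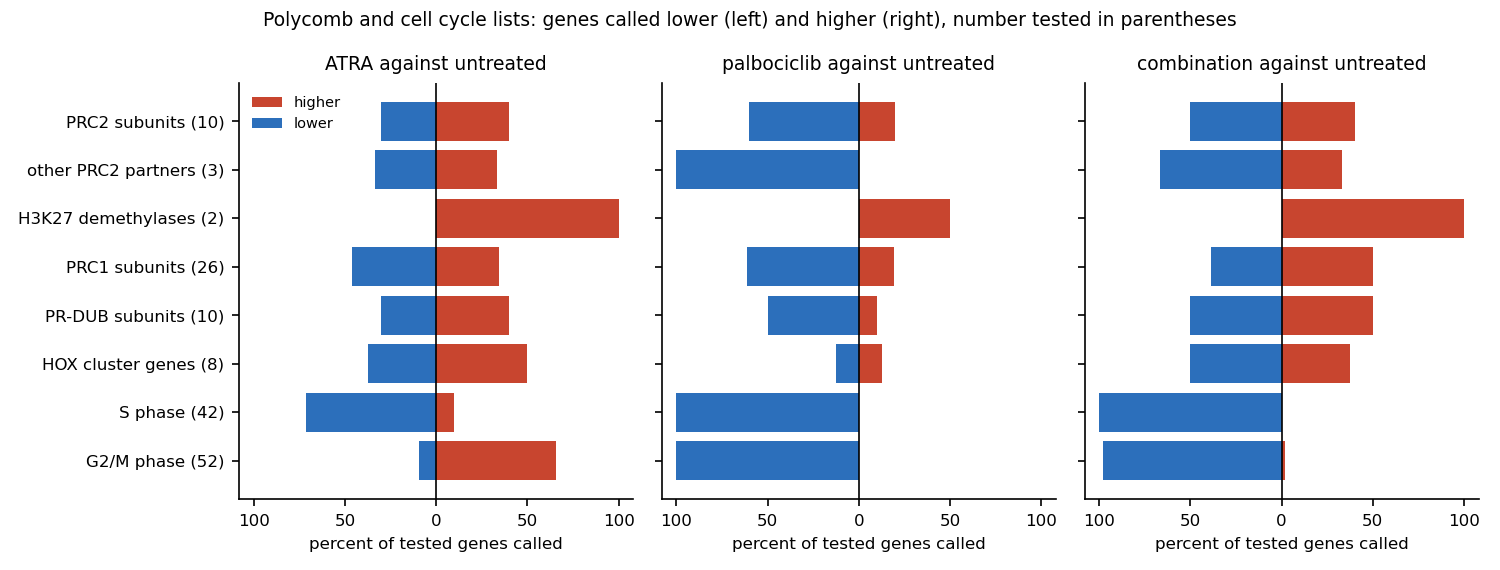
Percent of the tested genes of each Polycomb and cell cycle list that were called lower (left of 0) or higher (right of 0) with ATRA, palbociclib and the combination against untreated cells. The number of tested genes stands in parentheses. The S phase and G2/M bars reach 100% lower with palbociclib, while the PRC2 bars run both ways in every panel.

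PRC1, the Polycomb complex that binds the H3K27 mark and ubiquitinates histone H2A, had 26 of its 30 listed subunits tested. With the combination 13 rose and 10 fell (median 0.17), beside 41% higher and 40.7% lower over all tested genes. With palbociclib 5 rose and 16 fell (median -0.19), beside 28.3% and 27.9%, and with ATRA 9 rose and 12 fell (median -0.09), beside 32.1% and 35.5%. The extremes with the combination were PHC1, a polyhomeotic subunit (1.98 ± 0.134, SE), and CBX2, a chromobox reader of the mark (-3.95 ± 0.158), which went from 22.3 ± 0.814 CPM (SD, n = 3) to 1.42 ± 0.272 CPM. RING1, PCGF2 and SCML1 were listed at 0 in every library. RING1 and PCGF2 are also on alternate contigs. The complex that removes the ubiquitin, PR-DUB, had 10 genes tested, of which 5 rose and 5 fell with the combination (median -0.09), 1 rose and 5 fell with palbociclib, and 4 rose and 3 fell with ATRA. Called in either direction were 10, 6 and 7 of these 10, beside 81.7%, 56.2% and 67.6% of all tested genes. Its extremes were FOXK1, a forkhead factor that fell with the combination (-1.10 ± 0.0560), and ASXL3, which had no count in any untreated or palbociclib library and held 12, 8 and 12 counts with ATRA and 11, 9 and 13 with the combination.

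HOX cluster genes are classical targets of PRC2, and only 8 of the 39 passed the expression filter. Of the others, 16 were listed at 0 in every library, which was not read as absence. With the combination 3 rose and 4 fell (median 0.04), beside 41% and 40.7% of all tested genes, with palbociclib 1 rose and 1 fell (median -0.16), beside 28.3% and 27.9%, and with ATRA 4 rose and 3 fell (median 0.89), beside 32.1% and 35.5%. HOXA5 had the highest value with the combination (2.78 ± 0.259, SE), from 13 to 19 counts per untreated library to 65 to 87 counts. HOXA13 had the lowest (-4.29 ± 0.257), from 153 to 158 counts to 3 to 7 counts. The summed level of the 39 genes stayed low, at 51.9 to 55.6 CPM in untreated and 64.6 to 74.8 CPM in combination libraries.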

How the data were processed

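Per the labels, total RNA of HL-60 cells was made into directional libraries, and the authors trimmed reads with Trimmomatic 0.33 and aligned them with STAR 2.7.11a to hg38 under the RefSeq annotation. The values the authors deposited are unnormalized counts of reads per gene, in whole numbers. The paper names RSEM as their source, whereas the table has the layout of featureCounts. Whether strand was used in counting is not given in the sources used here.

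The 10 members, the other lists and the tests were chosen with earlier results of these data known. The counts were filtered with filterByExpr on the 4 groups, scaled with TMM and fitted with edgeR 4.0.16 (R 4.3.3) as a model of the 4 groups over all 12 libraries, with quasi-likelihood F tests and Benjamini-Hochberg adjustment over 13318 genes at a threshold of 0.05. Only the rows of the listed genes are printed. The study used DESeq2, which was run here (version 1.42.0) as an alternative. The scripts were tested on simulated counts. Between libraries of the same group, chi-square per degree of freedom was 1.81 to 6.22, so no library was taken to be a copy of another. That the libraries are biological replicates rests on the labels.

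Levels of different genes were compared as RPKM with the table's merged-exon lengths and, chosen after seeing the data, with MANE Select lengths of GENCODE 44. Ratios were tested by two-sided exact permutation with scipy 1.17.1. Outside the 10 members, the genes named were the highest and lowest of each list for the combination against untreated cells, all tested genes of lists of 5 or fewer, genes that overlap or copy a member, and the 5 genes most like EZH2 or EZH1 by Pearson's r of log2 CPM (prior count 2). Genes named as listed at 0 were added after their values were seen. Promoters came from RefSeq (GRCh38.p14), which held 14 windows for the 10 members.

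Alternatives tried were no expression filter, at least 10 counts in every library, scaling by library size alone or by DESeq2's size factors, a block for the replicate number, fits of just the groups compared, the DESeq2 test, other length corrections and leaving out each library in turn. The replicate numbers did not pair the libraries: over 18 same-number pairs, deviations from the group means correlated at -0.0702 to 0.0328, and none passed 0.1.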

Additional observations from a re-analysis of the deposited data

Results flagged for a closer look

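For 8 of the 10 subunits the effect of palbociclib differed between cells without and with ATRA, by the test of that difference itself (the interaction of the drugs, edgeR). The log2 interaction was 1.14 for JARID2, 0.32 for EZH1, 0.29 for EED and 0.24 for AEBP2. It was -1.12 for EZH2, -0.89 for RBBP7, -0.44 for PHF19 and -0.28 for SUZ12. Over all tested genes 51.4% had a called interaction. The values of EZH1, EED and AEBP2 lost their call without some of the libraries and turned their sign by library size alone, as given with them above.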

How the results depend on the processing

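Of 60 fold changes (10 subunits in 6 comparisons), 41 kept their direction and their side of the threshold under all alternatives and 19 did not under some. The falls of EZH2, RBBP7 and PHF19 with palbociclib and the combination, the fall of SUZ12 in the same groups and the rises of JARID2 with ATRA and the combination were among the 41. By library size alone the median of all genes shifted to -0.25 for the combination against untreated cells, -0.28 against palbociclib, -0.26 against ATRA and -0.34 for the interaction. With it the calls over all genes for the combination against untreated cells, 5461 higher and 5424 lower, became 4376 and 6431. Against palbociclib they went from 5212 and 5261 to 3805 and 6554, against ATRA from 4920 and 4371 to 2956 and 6412, and for the interaction from 3258 and 3594 to 1375 and 6061. This scaling reversed EZH1 (-0.081) and MTF2 (-0.17) between the combination and palbociclib, PHF1 (-0.11) and AEBP2 (-0.18) between the combination and ATRA, and the interactions of EZH1 (-0.0020), EED (-0.029) and AEBP2 (-0.073). Leaving out combination 2 reversed PHF1 between the combination and ATRA, where the values with a library left out ran from -0.0065 to 0.31. With no filter 5 subunits instead of 8 had a called interaction. The cause was not tested.

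With the replicate number as a block, 7, 8, 9, 8, 8 and 8 subunits were called in the 6 comparisons, the same as without it, and no subunit changed its call. Of the 12 libraries, 3 correlated best with a library of their own number, so the numbers were not read as pairs.

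The ratios depended on length by construction. With no division by length the log2 ratio of EZH1 to EZH2 was -2.68 in untreated, -2.61 in ATRA, -0.092 in palbociclib and 1.43 in combination cells, and with MANE Select lengths it was -3.48, -3.42, -0.90 and 0.62. The log2 ratio of PRC2.1 to PRC2.2 was 0.50, 0.071, -0.31 and -1.86 with no division by length and 1.04, 0.62, 0.25 and -1.28 with MANE Select lengths, in the same order. With the table's lengths this ratio was 1.08 with ATRA when PHF1 was left out, against 1.09 with PHF1. Its differences were -0.42 for ATRA, -0.81 for palbociclib and -2.36 for the combination against untreated cells with no division by length, and -1.55 and -1.93 for the combination against palbociclib and ATRA. With MANE Select lengths these were -0.42, -0.78, -2.32, -1.54 and -1.90. Depth limited PHF1 and the combination libraries of EZH2, at 19 to 47 and 76 to 111 counts.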
